A study of Homo sapiens with 8 samples.

Results

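Poly(A) site usage was examined in the ubiquitin and proteasome genes of breast cancer cells. The members were taken by gene symbol from both deposited tables: proteasome subunits and their partners (PSMA to PSMG), ubiquitin-conjugating enzymes (UBE2), ligase genes of the UBR and cullin (CUL) families, and deubiquitinases of the USP family. The rule took 98 of the 7503 genes listed in either table, namely 27 proteasome genes, 25 conjugating enzymes, 12 ligase genes and 34 deubiquitinases. The gene annotation holds 147 protein-coding genes with such symbols, and most of those that are not members have no pair of poly(A) sites in either table. USP36 is listed by its gene identifier under another symbol, AC022966.1, so the rule did not take it. The table that sets MDA-LM2 against MDA-MB-231 holds 92 members with 470 pairs of sites, out of 6541 genes. The table that sets sgHNRNPC against sgControl holds 96 members with 538 pairs, out of 6801 genes. Both tables list 90 of them. PSMG2 and USP19 are in the MDA-LM2 table alone, and PSMB5, PSMB9, PSMC6, UBE2E1, UBE2M and USP44 in the sgHNRNPC table alone. No filter on low values was applied, so every listed member is counted below.

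MDA-MB-231 is a human triple receptor negative breast cancer line, labelled poorly metastatic, and MDA-LM2 is its derivative that spreads to the lung. HNRNPC, a nuclear protein that binds runs of U in RNA, was knocked down by CRISPR interference in MDA-MB-231 to give the sgHNRNPC cells, and sgControl cells carry a non-targeting guide. All samples thus derive from a single line, there are 2 replicates in each of the 4 groups, and the comparisons have no sample in common. Both tables give logAPAR for each pair of a gene's poly(A) sites, that is, how the log of proximal over distal use changed, beside raw and adjusted P values. A negative logAPAR is a shift to the distal site. Which base the logarithm has is not named. There is no value for a single sample and no transcript level, so neither the spread between replicates nor the knockdown of HNRNPC could be checked here. Dividing logAPAR by the z-score of its P value gave the implied standard error used below.

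Proteins are marked for degradation by ubiquitin, which an activating enzyme passes to a conjugating enzyme (E2) and a ligase (E3) then directs to the substrate. Deubiquitinases remove the mark. The proteasome unfolds and degrades the tagged protein: its 20S core holds the proteases, and its 19S cap recognises ubiquitin and unfolds the substrate. Alternative polyadenylation is the choice of where the mRNA is cut and given its poly(A) tail. A choice within the last exon changes the length of the 3′ UTR, and a cut in an intron or an earlier exon can change the protein.

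The ends of UBE2A are shown because it is the single member with the same pair of sites past a raw P value of 0.05 in both comparisons. That is 1 of 387 member pairs listed in both (0.258%), against 0.239% of all such pairs, and so at the background. UBE2A is the E2 enzyme that acts with RAD18 in the tolerance of DNA damage. Its gene lies at chrX:119474802-119591083 on the plus strand of GRCh38, and the sequences are those of the GRCh38 genome at ends named by GENCODE release 44. The last 30 bases before each end are given 5′ to 3′, with AATAAA, the commonest poly(A) signal, in capitals.
UBE2A proximal end, ENST00000628549.1, chrX:119583592-119583621: tagcttgatgaccaggatgttatttttaac
UBE2A distal end, ENST00000371569.6, chrX:119584389-119584418: caaaagttgtaAATAAAaataaccttaaaa
The proximal end lies in the 3′ UTR part of the last exon of the canonical transcript, 802 nt before its end, and the distal end lies 5 nt before it. The ends are 797 nt apart, so that the pair contrasts a shorter with a longer 3′ UTR. The distal transcript is annotated as a retained intron form. None of the 31-base words in the last 100 bases of either transcript occurs in a transcript of another gene.

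The distal end of UBR4 is shown because the gene is the single member past an adjusted P value of 0.05. UBR4 is a very large ligase of the N-recognin family, which binds the destabilising N-terminal residues of substrates. The gene lies at chr1:19074510-19210266 on the minus strand of GRCh38.
UBR4 distal end, ENST00000375225.7, chr1:19074510-19074539: ataaacaagtgacttaacacacattgaaaa
The proximal end lies in an earlier exon of the canonical transcript, 46690 nt before its end, and belongs to a transcript that the annotation marks as having no known end. Of its last 30 bases 22 are A, and 98.9% of all placed ends hold fewer. A search of its last 50 bases found neither AATAAA nor ATTAAA. The part of this A content in the counts at that end was not tested. At the distal end, AATAAA starts 31 nt before the end and so just outside the printed window. All 31-base words in the last 100 bases of the distal transcript also occur in the long noncoding RNA ENSG00000272084, which overlaps UBR4 on the same strand, and reads of these genes cannot be told apart there.

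Over both tables, AATAAA was present in the last 50 bases of 36.0% of 186 member transcripts and 39.0% of all 11678 listed transcripts. ATTAAA without AATAAA was present in 9.68% and 9.95% of these same transcripts. Sites named by transcript could be placed on GRCh38 for 163 of 176 member ends in the MDA-LM2 table. Of these ends, 50 were the canonical end, 37 lay in the 3′ UTR part of the last exon and 60 lay in an earlier exon. The share in an earlier exon was 36.8% in the members and 25.0% in all genes. It was 51.4% of the 72 ends of deubiquitinases and 8.82% of the 34 ends of conjugating enzymes. These shares cover placed transcript ends only, and 47 of 125 deubiquitinase sites and 48 of 84 sites of conjugating enzymes are named by position. Sites named by position, 139 of the 315 member sites, are in a genome build that the table does not name, and only 23 of them lie within 5000 nt of their gene in GRCh38. They are used here as labels.

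The number of sites differed between the classes. Proteasome genes had a median of 2 sites and all genes a median of 3, and 16 of 24 proteasome genes in the MDA-LM2 table had the minimum of 2 sites. Deubiquitinases had a median of 4. The longest lists were the 9 sites of UBE2K and the 7 sites each of USP46 and USP9X, all in the sgHNRNPC table. Among ligases CUL3 and CUL5 led with 6 sites in either table, and among proteasome genes the leaders with 6 were PSMF1 for MDA-LM2 and PSMD12 for sgHNRNPC.

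At the raw P threshold of 0.01, 2 member genes were called in MDA-LM2 cells, UBR4 and USP49, which is 2.17% of the members against 2.72% of all genes. Both shifted to the distal site, as did 55.6% of all genes called there. At an adjusted P value under 0.05, UBR4 alone passed, where 0.122% of all genes did. At a raw P value under 0.05, 12 members passed, which is 13.0% against a background of 11.0%. Of these, 7 shifted to the distal and 5 to the proximal site, where 53.3% of all genes called at 0.05 shifted to the distal site. Counted by pair, 16 of 470 member pairs passed 0.05, which is 3.40% against 4.05% of all pairs. By raw P value the members were thus called at shares near the background, while the single adjusted call is 1.09% of the members.

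In sgHNRNPC cells 0 members passed a raw P value of 0.01 by APAlog, where 1.62% of all genes did, and 0 passed an adjusted P value of 0.05, where 0.338% of all genes did. At a raw P value under 0.05 the calls were UBE2A, UBE2R2 and USP7, or 3.12% of the members against a background of 4.51%. By pair, 3 of 538 passed, which is 0.558% against 1.30% of all pairs. The raw P values of this table are sparser than uniform ones at the low end: the SD of the z-scores they imply was 0.736 over all pairs, against 0.986 in the MDA-LM2 table.

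**Figure D1:**
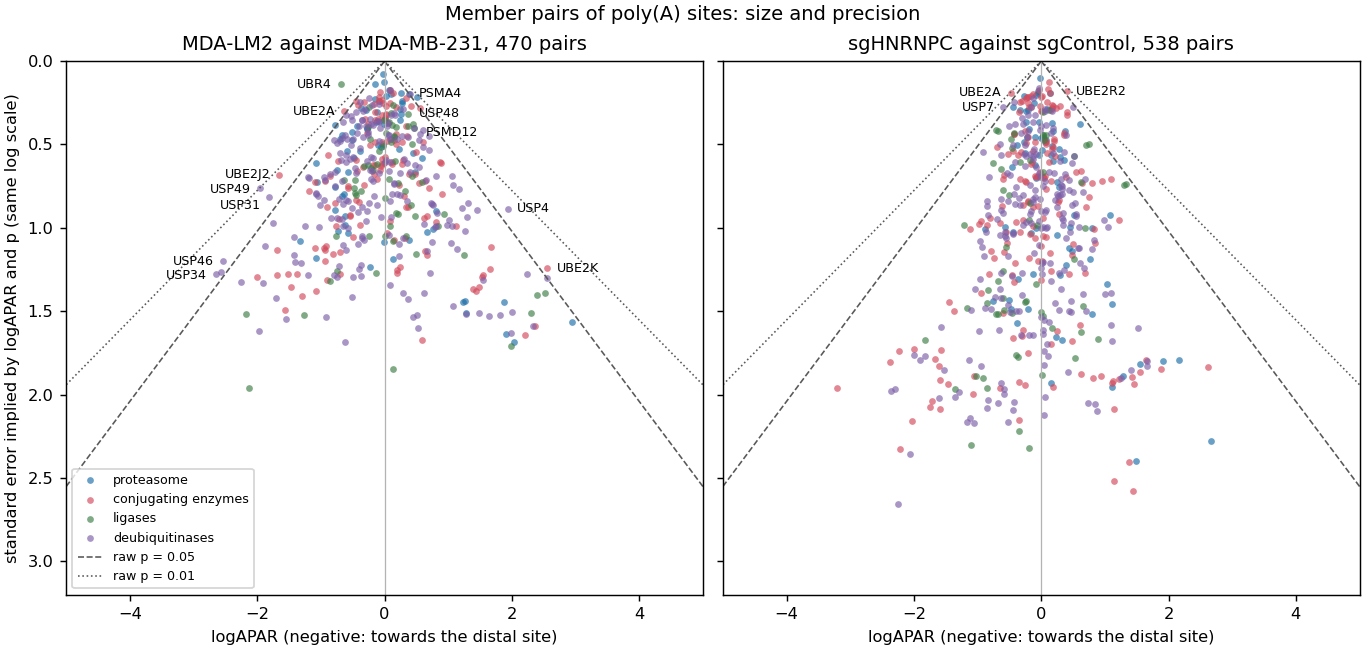
Every member pair of the MDA-LM2 (left, 470 pairs) and sgHNRNPC (right, 538 pairs) comparisons, with logAPAR on the x axis and its implied standard error on the y axis, precise pairs at the top. Colours are the 4 classes, lines mark raw P values of 0.05 (dashed) and 0.01 (dotted), and names stand beside or just below the lowest-P pair of each gene under 0.05. UBR4 lies far outside the dotted line, and most large values of logAPAR lie low in the plot, where the standard error is large.

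UBR4 had the lowest P value among the members. Its only pair had a logAPAR of -0.68 in MDA-LM2 cells, with an implied standard error of 0.139 and a 95% interval of -0.95 to -0.41 (raw P = 1.03e-06 and adjusted P = 0.00924 in the authors' deposited table). The annotated distal end therefore gained on the internal end. In sgHNRNPC cells the same pair had a logAPAR of 0.02 with a standard error of 0.445. The difference between the comparisons was -0.70 with a 95% interval of -1.61 to 0.21, so that they were not shown to differ.

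The other 5 UBR genes and the 6 cullins passed no threshold of 0.05 in MDA-LM2 cells. Cullins are the scaffolds of the cullin-RING ligases. UBR3 came closest, with a logAPAR of 2.53 for its outermost pair, which joins its first and its last site, and a standard error of 1.39. UBR7 followed at 0.45 with a standard error of 0.375. In sgHNRNPC cells CUL5 had the lowest P value of the class (logAPAR 1.34, standard error 0.740), ahead of CUL2 (-1.22, standard error 0.984) and CUL4A (-0.75, standard error 0.609). The outermost pair had a median of 0.09 over the 12 ligase genes in MDA-LM2 cells, with 4 to the distal side, and of -0.44 in sgHNRNPC cells, with 7 to the distal side. The outermost pair of CUL5 itself was near 0 in both (0.12 with a standard error of 0.382, and 0.04 with 0.473).

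Among conjugating enzymes, UBE2A had a logAPAR of -0.63 in MDA-LM2 cells (95% interval -1.22 to -0.04, raw P = 0.0353, adjusted P = 0.974 in the authors' deposited table). In sgHNRNPC cells the same pair had -0.48 (-0.85 to -0.11, raw P = 0.0115 in the authors' deposited table, where its adjusted P is 1). The values differed by -0.15 with a 95% interval of -0.85 to 0.55. Both point to the longer 3′ UTR, and neither passes an adjusted threshold. The sgHNRNPC table lists another UBE2A end, which takes 0.185% of the effective count defined below, while the proximal and distal ends of the pair take 23.9% and 75.9%.

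UBE2J2, an E2 of the endoplasmic reticulum membrane used in the degradation of misfolded proteins, had a logAPAR of -1.65 in MDA-LM2 cells between its first and middle site (95% interval -2.99 to -0.32) and of 0.56 between its middle and last site (0.01 to 1.11). Both pairs moved towards the middle site, which holds 89.4% of the effective count there. UBE2K, an E2 that builds K48-linked chains, had 2.56 for a pair of minor sites (0.13 to 4.99), which hold 2.20% and 0.553% of its effective count. Its outermost pair, which joins its 2 main ends, was at -0.03 with a standard error of 0.249. UBE2R2, an E2 that works with cullin-RING ligases, had a logAPAR of 0.40 in sgHNRNPC cells (0.04 to 0.75) between its first and second site. The same pair was at 0.13 with a standard error of 0.189 in MDA-LM2 cells. UBE2N, the E2 of K63-linked chains, had -3.21 for its lowest-P pair in sgHNRNPC cells, but with a standard error of 1.96. UBE2L3, with the lowest standard error of the class in the MDA-LM2 table, had an outermost pair at -0.09 with a standard error of 0.217. The remaining genes that reached 6 sites in the MDA-LM2 table, UBE2H and UBE2J1, had outermost values of -0.92 (standard error 1.11) and 0.12 (standard error 0.618).

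Deubiquitinases gave the most calls in MDA-LM2 cells at a raw P value under 0.05, 6 of 33 genes, which is 18.2% against 11.0% of all genes. They are also the largest class, with a median of 4 sites per gene. By pair, 8 of 204 passed, which is 3.92% against 4.05% of all pairs. USP49, a deubiquitinase of histone H2B, had a logAPAR of -1.96 (standard error 0.759, raw P = 0.00976 and adjusted P = 0.974 in the authors' deposited table). That pair sets a site with 4.44% of the effective count against one with 93.5%, so the change concerns a minor site. The lowest-P pairs of USP31, at -1.81, USP46, at -2.53, and USP34, at -2.65, were on the distal side too, with standard errors of 0.814, 1.20 and 1.28. Their outermost pairs were at 1.98, 0.36 and -0.65, with standard errors of 1.63, 0.840 and 0.857. USP4 was on the proximal side at 1.93 (standard error 0.886). Its last listed end, which is not in that pair, shares 84.3% of its 31-base words with C3orf62, so reads there are uncertain. USP48 was the most precise of the called deubiquitinases, at 0.40 with a 95% interval of 0.01 to 0.79, and in sgHNRNPC cells the same pair was at -0.03 with a standard error of 0.161. The rarer site of the called pair had an effective count, as defined below, of 3.63 in USP49, 5.74 in USP31, 1.86 in USP46, 1.27 in USP34 and 2.63 in USP4. In USP48 it was 63.2. All but the USP48 call thus involve a site with a low effective count.

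In sgHNRNPC cells USP7, which acts on MDM2 and p53, was the single deubiquitinase under 0.05. The pair of its main site with the next site downstream gave a logAPAR of -0.59 (-1.14 to -0.05), and the same pair was at 0.16 with a standard error of 0.326 in MDA-LM2 cells. USP37 had -0.92 with a standard error of 0.546 in sgHNRNPC cells. The same pair, in the 3′ UTR, was at 0.70 with a standard error of 0.452 in MDA-LM2 cells. After the proximal end of this pair, 17 of the next 20 bases are A. Of the 31-base words in the last 100 bases of its transcript, 21.4% also occur in other genes, 313 in number. The part of either feature in the counts at that end was not tested. USP14, which docks on the proteasome, had -0.65 for its lowest-P pair in sgHNRNPC cells (standard error 0.496) and -0.69 for another pair in MDA-LM2 cells (standard error 0.477). USP8, which reached 6 sites in both tables, had outermost values of 0.24 (standard error 0.802) and 0.47 (standard error 1.44). USP10, the deubiquitinase with the lowest standard error of the outermost pair, was at 0.09 with a standard error of 0.176 in MDA-LM2 and at 0.05 with 0.285 in sgHNRNPC cells. USP9X and USP46, the deubiquitinases with the most sites, had outermost values of 0.15 (standard error 1.32) and 0.03 (standard error 1.63) in sgHNRNPC cells. Over the class, the outermost pair had a median of -0.34 in MDA-LM2 cells, with 21 of 33 genes to the distal side, and of -0.17 in sgHNRNPC cells, with 23 of 33.

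Proteasome genes were the most precisely measured class. The median standard error of their outermost pair was 0.468 in MDA-LM2 cells, where that of all genes was 0.741. It was 0.664 against 0.998 in sgHNRNPC cells. PSMD2, a scaffold of the 19S base, had the lowest standard error of all members. Its logAPAR was -0.02 in MDA-LM2 cells (95% interval -0.16 to 0.13) and -0.02 in sgHNRNPC cells (-0.22 to 0.18). PSME1, a subunit of the PA28 activator, was at -0.01 with a standard error of 0.124 and at 0.13 with 0.189. PSMD1, the other large scaffold of the base, was at -0.15 with 0.139 and at -0.04 with 0.179. Of the intervals of these 3 genes, that of PSME1 in sgHNRNPC cells reached furthest from 0, to 0.50 on the logAPAR scale.

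Under 0.05 the proteasome calls in MDA-LM2 cells were PSMD12 and PSMA4. PSMD12, a subunit of the 19S lid, had 0.51 between the first site and the last but one (0.09 to 0.93) and -0.78 between the last but one and the last (-1.53 to -0.04), so that the last but one, its main site, lost to both. In sgHNRNPC cells the same pairs were at 0.19 and -0.22 with standard errors of 0.421 and 0.454. PSMA4, a subunit of the outer ring of the 20S core, was at 0.39 (0.00 to 0.78), and at -0.27 with a standard error of 0.211 in sgHNRNPC cells. The difference between these values was 0.67 with an unadjusted 95% interval of 0.10 to 1.23. The proximal end of this PSMA4 pair belongs to a transcript that the annotation marks as having no known end. It lies in the last exon, outside the 3′ UTR part, 3597 nt before the canonical end. Its last 50 bases hold neither AATAAA nor ATTAAA. PSMC5, an ATPase of the 19S base, had the next lowest P value, with a logAPAR of 2.95 and a standard error of 1.57 between minor sites.

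In sgHNRNPC cells 0 of 26 proteasome genes had a raw P value under 0.05 by APAlog, where 4.51% of all genes did, so that a count of 0 in a class of this size says little. The lowest were those of PSMF1, known as the inhibitor PI31, at 0.61 with a standard error of 0.379, and of PSME3, the nuclear activator PA28γ, at -0.44 with 0.277. The outermost pair was on the distal side in 8 of 9 PSMD genes in MDA-LM2 cells, where 52.3% of all genes were, and in 4 of 9 after HNRNPC knockdown, where 57.9% were. The 95% interval of each of these pairs included 0, and the difference between the counts was not tested. The PSMB genes encode the ring with the proteolytic sites, and their 4 outermost pairs in the sgHNRNPC table lay between 0.30 and 1.04. The 2 in the MDA-LM2 table were at 0.00 and -1.08. PSMB5 and PSMB9 are listed for sgHNRNPC alone, and the outermost pair of PSMB4 joins other sites there. These PSMB values thus do not show a change of direction. The PSMC genes, ATPases of the base, ran from -0.16 to 1.88 in MDA-LM2 and from -0.21 to 1.28 in sgHNRNPC cells. The PSMA genes ran from -0.57 to 0.39 and from -0.48 to 1.07, and the PSME activators from -0.57 to -0.01 and from -0.44 to 0.13. All the PSMB, PSMC and PSME intervals included 0. Over the class the median was -0.14 in MDA-LM2 cells, with 16 of 24 genes to the distal side, and 0.11 in sgHNRNPC cells, with 11 of 26. The subgroups hold few genes and are given as counts. Their genes and outermost pairs are not all the same in both comparisons.

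**Figure D2:**
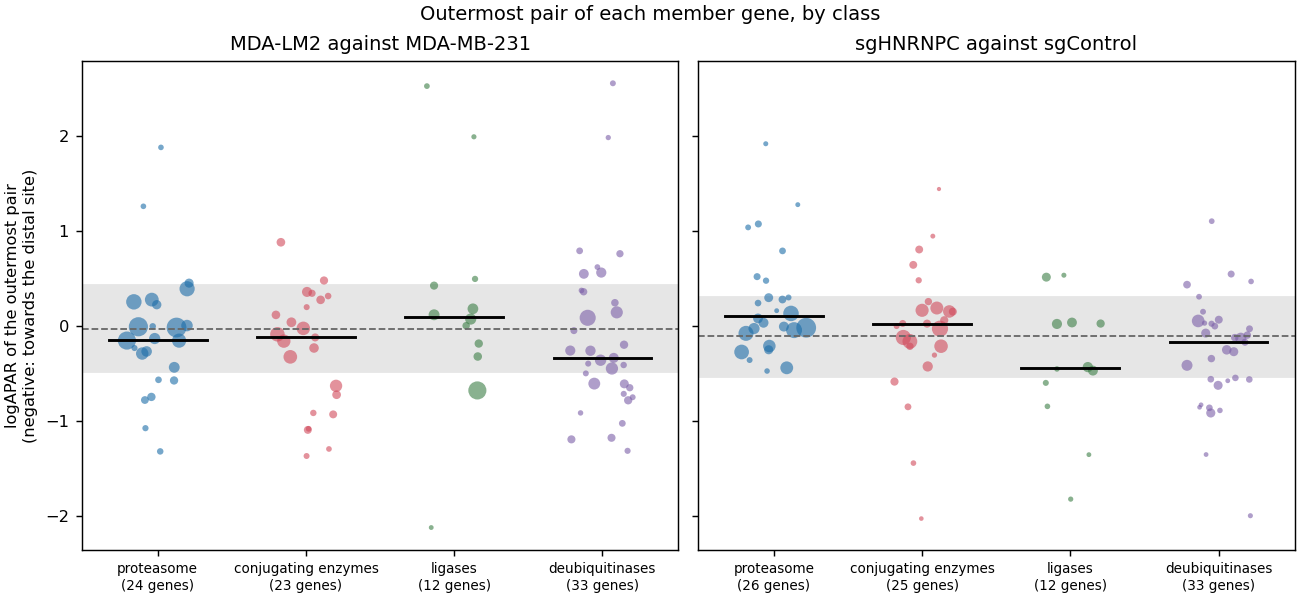
The logAPAR of the outermost pair of each member gene by class, in MDA-LM2 (left) and sgHNRNPC cells (right), with larger points for lower implied standard errors. Black bars are class medians, the dashed line and grey band are the median and quartiles of all genes. The medians of MDA-LM2 run from -0.34 for deubiquitinases to 0.09 for ligases, and those of sgHNRNPC from -0.44 for ligases to 0.11 for proteasome genes.

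Taken over all members, the outermost pair had a median of -0.15 in MDA-LM2 cells, where all genes had -0.03. Over all pairs these medians were -0.08 and -0.01. By the outermost pair, 55 of 92 members (59.8%) were on the distal side, where 52.3% of all genes were. In sgHNRNPC cells the median was -0.03 against -0.11 for all genes, but over all pairs it was -0.08 for both. There 53 of 96 members (55.2%) were on the distal side against 57.9%. The quartiles of the members were -0.62 and 0.28 in MDA-LM2 cells, against -0.44 and 0.20 after knockdown, and the typical standard error of a member's outermost pair was 0.664 and 0.846. In each comparison 21 members had a 95% interval wholly between -1 and 1, as had 1051 of 6541 and 730 of 6801 genes in all.

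The pairs listed in both comparisons allow a direct reading of whether a member behaved alike in the metastatic derivative and after HNRNPC knockdown. There were 387 such member pairs in 90 genes, and 190 of them (49.1%) had the same sign, as against 51.2% of the 21296 pairs of all genes. Over these pairs Pearson's r was -0.14 and Spearman's rho -0.06, where all pairs gave 0.03 and 0.03, as a description of pairs that share sites and genes. Among the 80 member pairs with a standard error under 0.5 in both comparisons, 41 had the same sign (51.2%), against 53.2% of such pairs in all genes. The difference between the comparisons had an unadjusted 95% interval that did not include 0 in 8 of 387 member pairs (2.07%) and in 1.97% of all shared pairs. These were 1 pair each in UBE2B, UBE2F, UBE2N, USP37, USP49, USP7, CUL5 and PSMA4.

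**Figure D3:**
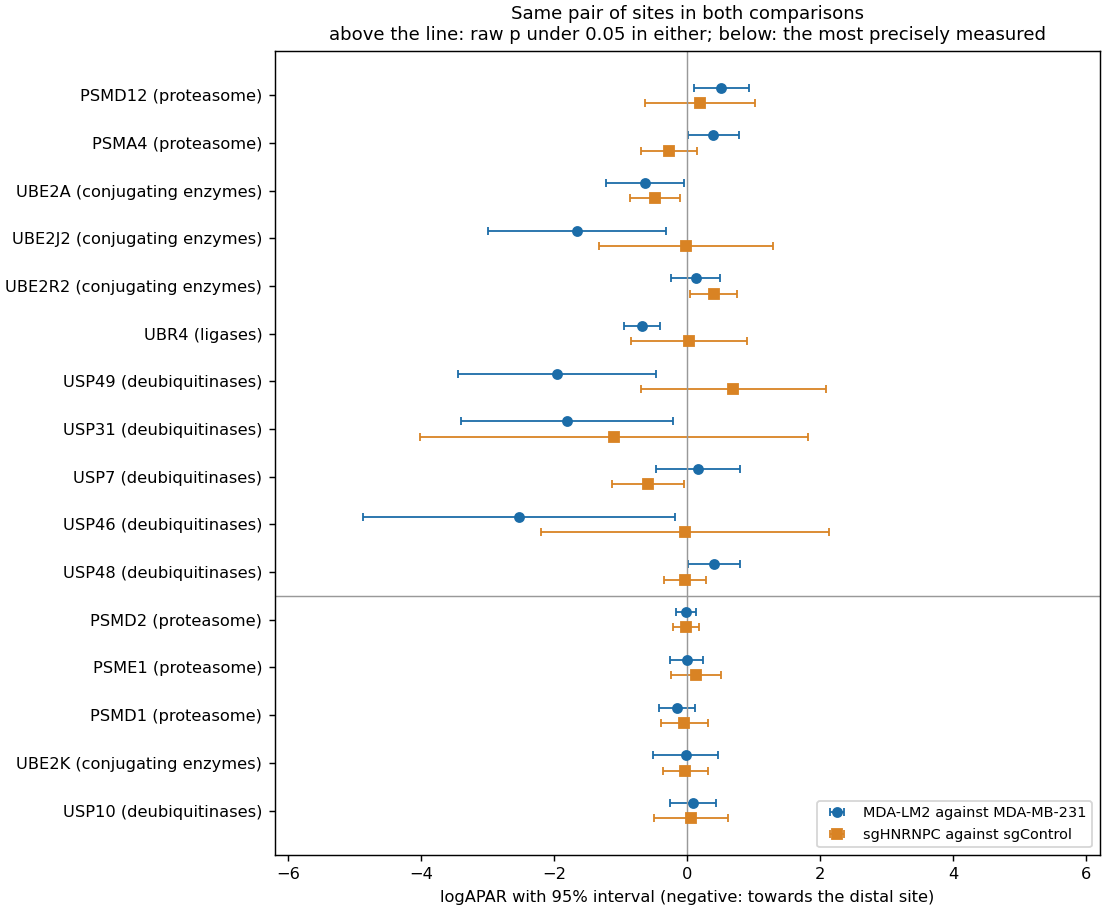
The logAPAR of the same pair of sites in MDA-LM2 (circles) and sgHNRNPC cells (squares), with 95% intervals from the implied standard error. Above the line is the lowest-P pair of each member under 0.05 in either comparison, for pairs listed in both, and below it are precisely measured members, among them UBE2K by its main ends. UBE2A is left of 0 in both, UBR4 in MDA-LM2 alone, and the 5 members below the line include 0 in both.

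The P values also show how the counts are spread over the sites of a gene. In genes with at least 3 sites, the squared standard error of a pair equalled the sum of one term for each of its sites. The largest residual was under 1% in each of the 38 and 41 members with enough pairs to check it, and in all 1835 and 2048 such genes. This is the form that counting error alone gives, and a term for the spread between replicates is not visible in it, although a factor common to all sites of a gene would not show. The P values here are therefore read as covering counting error. The inverse of a site's term, doubled, is called its effective count, which is the harmonic mean of the normalised counts of both groups if logAPAR is a natural log. The shares within a gene do not depend on that base. A member site had a median effective count of 10.7 for MDA-LM2 and 7.16 for sgHNRNPC, where all genes had 11.0 and 6.24.

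Several members used a single site almost alone. USP22, the deubiquitinase of the SAGA complex, had 99.1% and 99.6% of its effective count at its canonical end in the MDA-LM2 and sgHNRNPC tables. PSMC5 had 99.0% and 98.7% at its canonical end. CUL4B, a scaffold that works with DDB1, had 91.3% and 93.1% at 1 end. UBE2J2 had 89.4% and 93.6% at the site that is its middle one in the MDA-LM2 table. For such genes a large logAPAR concerns few reads, as in PSMC5 above. The dominant site of USP48 lay in an earlier exon, 42738 nt before the canonical end, with 70.9% and 72.2% of the effective count. The ends of USP48 that form its called pair are shown because the main site lies inside the gene body, on the minus strand of chromosome 1.
USP48 proximal end, ENST00000487880.2, chr1:21721036-21721065: gaaagatgaacggtagcaccttaAATAAAg
USP48 distal end, ENST00000374732.7, chr1:21678903-21678932: tttcAATAAAgcatgaaagtgaagaacttg
In the MDA-LM2 table, AATAAA stands in the last 30 bases of 5 of 37 deubiquitinase ends in an earlier exon, or 13.5%, and of 2.09% of such ends in all genes. It stands in 0 of 9 such ends of proteasome genes, 0 of 3 of conjugating enzymes and 0 of 11 of ligases. Of the deubiquitinase ends with AATAAA, those of USP15 and USP25 belong to transcripts marked as having no known end. AATAAA starts 8 nt before the end in USP15, 6 nt in USP46, 24 nt in USP25 and 22 nt in USP37. At the proximal end of USP48 it starts 7 nt before the end, and at the distal end 26 nt before. The match is a description of the letters, and whether it serves the proximal end was not tested.

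The main site of a member was often not the same in the libraries of the 2 comparisons. Among the 52 members with effective counts in both, 32 (61.5%) had the same dominant site, where 66.4% of 2797 genes did. In 17 of the 20 that differed, the dominant site of the sgHNRNPC table was the more distal one, including all 10 deubiquitinases. Over all genes this held for 670 of 915 (73.2%), so the direction is shared with the rest of the table. Some changes were near ties between the 2 dominant sites in the sgHNRNPC table. The shares there were 49.5% and 47.5% in USP10, 44.7% and 41.9% in USP25, and 40.9% and 38.9% in USP53. The precision of the shares was not estimated. UBE2K and USP34 gave wide gaps. In UBE2K the proximal end took 81.9% of the effective count for MDA-LM2 and 25.2% for sgHNRNPC, and its distal, canonical end took 12.7% and 67.7%. Within each comparison the logAPAR of this pair was -0.03. The ends of UBE2K, on the plus strand of chromosome 4, are shown because this pair differed between the libraries of the comparisons and within neither.
UBE2K proximal end, ENST00000503368.5, chr4:39778681-39778710: gctaagctaaaaccatggaagaaacatgct
UBE2K distal end, ENST00000261427.10, chr4:39782763-39782792: AATAAAtgcatgcatgttttcccctgaaaa
The proximal end lies in the 3′ UTR part of the last exon, 4082 nt before the canonical end. PSMD12 differed too, with 54.9% of its effective count at its last site but one for MDA-LM2 and 12.9% at the same site for sgHNRNPC, and so did USP34, whose dominant site moved from 65.4% to 14.3% while ENST00000411912.5 went from 23.6% to 81.8%. The effective count joins both groups of a comparison, and the comparisons used separate libraries. The labels name the QuantSeq FWD and REV kits together for every sample, while the methods of the study name REV for poly(A) site usage. Cell line and library cannot be told apart here.

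**Figure D4:**
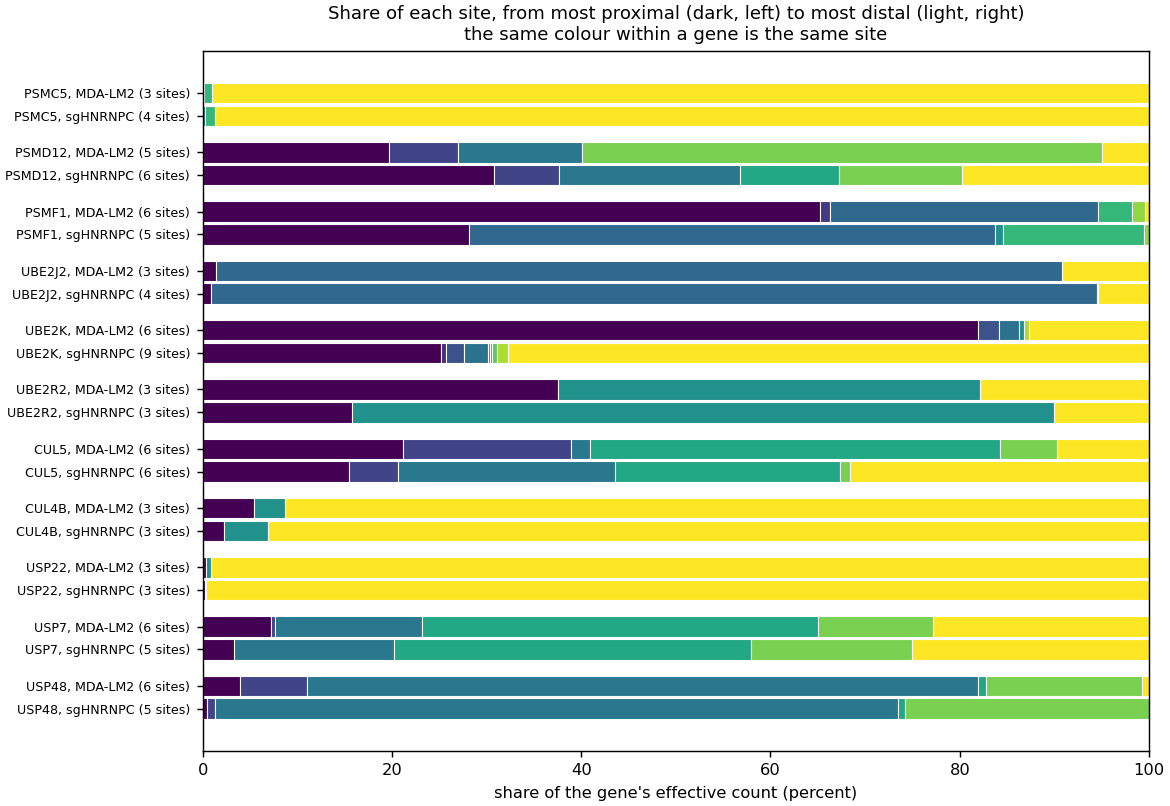
Share of the effective count at each site of 11 members, in percent, with sites from the most proximal (left, dark) to the most distal (right, light) and the same colour for the same site of a gene. USP22 and PSMC5 are nearly a single block in both tables, UBE2K changes from its first to its last site between the tables, and PSMD12, PSMF1 and CUL5 are spread over several sites.

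The other genes of the pathway were read from a list of 107 genes that holds activating enzymes, ubiquitin itself, cullin partners, other ligases and deubiquitinases, and proteasome helpers. Each table lists 76 of them. In MDA-LM2 cells 0 passed a raw P value of 0.01 by APAlog, where 2.72% of all genes did. At 0.05, 11 passed, which is 14.5% against 11.0%, and 5 of these were on the distal side. In sgHNRNPC cells 3 passed 0.01, which is 3.95% against the 1.62% of all genes, and all 3 shifted to the distal site, as did 74.5% of all genes called there. Of these, SMURF2, a HECT ligase, had a logAPAR of -0.59 (standard error 0.187), and VCP, the segregase that extracts ubiquitylated proteins, had -0.98 (standard error 0.321). No adjusted P value in the list was under 0.05.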

How the data were processed

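Human cell line RNA was sequenced with Lexogen 3′-end kits in 8 samples. Read counting by the authors used Salmon 0.14.1 and the unique 3′ ends of Gencode release 33. APAlog, their multinomial logistic regression, then compared the normalised abundances of every 2 sites of a gene. The deposited columns used are logAPAR, the raw p-value and the adjusted p-value of each pair, and these authors' values were taken as they stand, since no value of a single sample is given. Depth per sample is unknown. Recomputing the adjustment by Benjamini-Hochberg over a whole table gave the deposited adjusted p-values. A gene was called by its lowest raw p-value under 0.01, which the study marks in plots of its logistic regressions. Standard errors came from logAPAR and p, and intervals are at 95%. Site terms were solved by least squares in genes with at least 3 sites, from p-values below 0.98. Transcript ends were placed by identifier and version with GENCODE release 44. Genomic positions were not converted.

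Named genes are members with a raw p-value under 0.01, otherwise the 3 with the lowest p-value of each class and table, and those with the most sites or the lowest standard error of the outermost pair in a class. Other members given values were chosen after these were seen. Members, lists and tests were chosen with earlier results of these data known. Scripts were tested on simulated data. The tools were Python 3.11.15, with numpy 2.4.6 and pandas 2.3.3 for tables, scipy 1.17.1 for z-scores and matplotlib 3.10.9 for plots. A gene of the pathway list and a sequence are not reported here.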

Additional observations from a re-analysis of the deposited data

How the results depend on the processing

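The 2 called members of MDA-LM2 cells, both distal, became 12 at a raw P value under 0.05, with 7 distal. They became 1 at a raw P value under 0.001, at an adjusted P value under 0.1, with the outermost pair, with pairs of 2 transcript ends, with pairs of 2 genomic sites and with a standard error under 0.5. UBR4 is that gene except with genomic sites, where it is USP49, and the distal count with the outermost pair or transcript ends was also 1. In sgHNRNPC cells the count of 0 became 3, with 2 distal, at a raw P value under 0.05. It became the same with z-scores scaled to unit spread, an alternative chosen after seeing the data, under which 5.15% of all genes passed 0.01. The count called in both comparisons went from 0 to 1 at 0.05, which is UBE2A. The median logAPAR of the members in sgHNRNPC cells went from -0.03 to 0.72 with outermost pairs of 2 genomic sites, and that in MDA-LM2 cells from -0.15 to 0.10, where few genes are left. The cause was not tested. Over all pairs and with the lowest-P pair the median in sgHNRNPC cells was -0.08 and -0.10, where all genes had -0.08 and -0.21, so its gap to all genes depends on which pair is read. Apart from genomic sites, it ran in MDA-LM2 cells from -0.26 with transcript ends to -0.08 over all pairs. The remaining settings in which these counts and medians were recomputed changed neither direction nor call. No paired analysis was possible because single samples have no values in either table, and for the same reason no replicate was left out.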
